A study of Mus musculus with 12 samples.

Results

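The 10 genes described here, Trem2, Tyrobp, Clec7a, Itgax, Lpl, Ch25h, Cst7, Cd9, Spp1 and Csf1, are known as disease-associated microglia (DAM) genes. They were chosen by name from a list of such genes, found by the mouse symbol of their Ensembl identifier, and are 10 of the 54838 genes counted. RNA was sequenced from 12 libraries of adult mouse spinal cord, 3 in each of 4 groups, to ask how gene expression changes during myelin repair when the DNA hydroxylase TET1 is lost from the oligodendrocyte lineage. Control mice were Olig1+/+;Tet1 fl/fl, named wildtype in the labels, and mutant mice were Olig1 cre/+;Tet1 fl/fl, so that both genotypes carried the floxed Tet1 alleles and only the mutants carried cre. In the mutants exon 4 of Tet1 is removed in cells that have expressed Olig1, and microglia, which arise outside that lineage, are not the intended target. All mice were at P60. One side of the cord was injected with lysolecithin (LPC), a lysophospholipid that strips myelin, and was collected at 4 days post-lesion (4dpl), and the contralateral side served as unlesioned tissue. The tissue was dissociated and enriched for oligodendroglial cells on a Percoll density gradient without a sort, so other cells are present. The study's methods describe 3 biological replicates per age and condition for spinal cord RNA. The labels do not say whether the replicates are separate mice or which lesioned and unlesioned libraries share a mouse. The p-values measure the spread between these libraries, which may in part be technical.

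Microglia that meet damaged myelin, plaques or dying cells leave their resting state and switch on a shared set of genes for lipid uptake, lysosomal digestion and secreted signals. TREM2 is a surface receptor for lipids and apolipoproteins, and it signals through the adaptor TYROBP, which carries the activating motif that recruits the kinase SYK. In lysolecithin lesions, microglia and macrophages clear the myelin debris before progenitors make new myelin.

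The promoters show where members of the set carry short motifs of factors active in myeloid cells, and 3 stretches are printed for that reason. RefSeq promoters of GRCm38.p6, from 250 bases before to 50 bases after the annotated start, were found for 8 of the 10 members. Tyrobp and Lpl were not matched. They were searched on both strands for the PU.1 motif AGGAAGT, the AP-1 motifs TGACTCA and TGAGTCA, and the E-box CACGTG of the lysosomal MiT/TFE factors. The AP-1 motifs are reverse complements of each other, and no match overlapped that of another motif in the members. AGGAAGT was found in 9.4% of the 32851 promoters of the same length, an AP-1 motif in 5.2% and CACGTG in 7.2%. Among the members, AGGAAGT was found in Cst7 and Spp1, an AP-1 motif in Itgax and CACGTG in none, and a match of letters is a description and not a binding site. The motif is in capitals, 5′ to 3′ on the strand of the gene, which is the plus strand for these 3 genes. The stretches lie upstream of the start at chr2:150570332-150570378 for Cst7, at chr5:104434979-104435025 for Spp1 and at chr7:128129474-128129520 for Itgax.
Cst7: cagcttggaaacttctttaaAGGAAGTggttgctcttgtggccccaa
Spp1: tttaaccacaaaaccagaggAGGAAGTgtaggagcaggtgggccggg
Itgax: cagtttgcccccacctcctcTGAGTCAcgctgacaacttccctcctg
The motif lay 63 to 57 bases before the start in Cst7, 112 to 106 bases before it in Spp1 and 56 to 50 bases before it in Itgax, the only member with TGAGTCA.

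Total counts were between 34805086 and 67251544 per library. Between 40023 and 44516 genes had a count in the unlesioned libraries and between 33964 and 37516 in those at 4dpl. Levels are given as CPM, counts scaled to a common library size, after adjustment by TMM. TMM is a method that sets library sizes so that most genes do not change. Its factors were between 0.881 and 1.302 in the unlesioned libraries and between 0.806 and 0.932 at 4dpl. Log2 fold changes come from one edgeR model of all 12 libraries. Tet1 itself was counted at 15, 14.9 and 18.3 CPM in the control unlesioned libraries and at 16.4, 9.94 and 12.1 CPM in the mutant unlesioned ones. At 4dpl it was at 12.5, 11.7 and 12 CPM in the control and at 13.4, 10.9 and 21.5 CPM in the mutant. Its log2 difference of mutant over control was -0.33 (SE 0.27, adjusted p = 1) unlesioned and 0.34 (SE 0.27, adjusted p = 0.905) at 4dpl. Counted over all exons and in unsorted cells, Tet1 did not separate the genotypes, so mutant below means the libraries labelled mutant. Of the markers of other cells, none was at 0 in all 12 libraries. The 7 oligodendrocyte markers summed to between 14490 and 68390 CPM. The 6 neutrophil markers, among them S100a8 and S100a9, summed to between 18760 and 105100 CPM, and were present in every library.

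**Figure D1:**
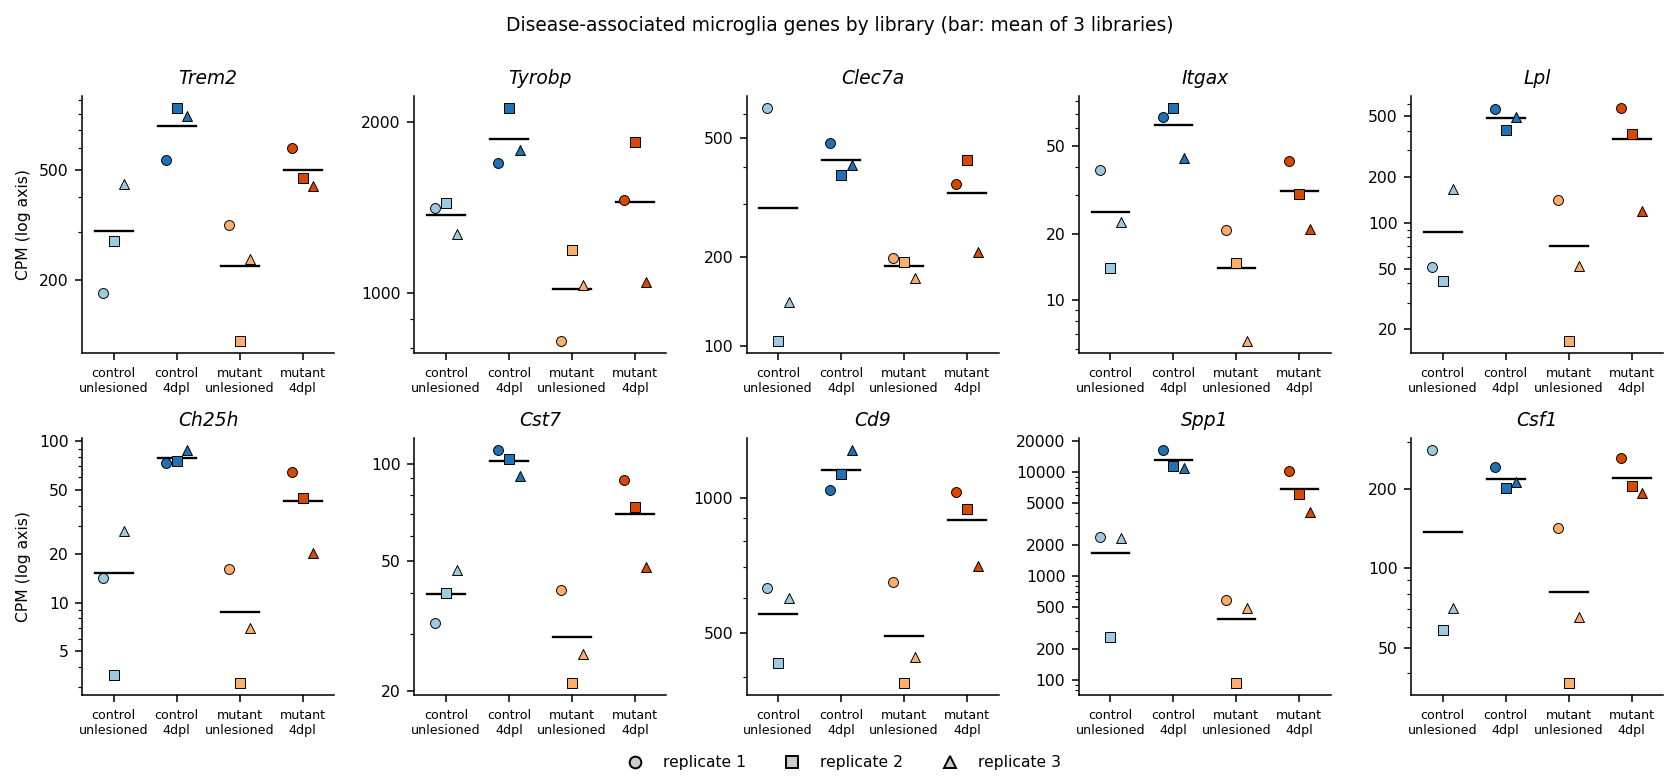
Level of each of the 10 genes in CPM on a log axis (vertical) in the 4 groups (horizontal); each point is 1 library, its shape the replicate number, and the bar is the mean of 3 libraries. The 4dpl libraries of the control lie above all control unlesioned ones for every gene but Clec7a and Csf1, where control unlesioned replicate 1 is the highest library.

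Trem2, the receptor, rose after lesion in the contrast averaged over genotypes, and Tyrobp, its adaptor, did not pass the test. Trem2, on chromosome 17 of GRCm38 from 48346401 to 48354147, stood at 180.5, 277 and 446 CPM in the control unlesioned libraries and at 544, 841 and 787 CPM in the control at 4dpl. Trem2 in the mutant was at 316, 120.3 and 239.9 CPM unlesioned and at 599.9, 468 and 438 CPM at 4dpl. In both genotypes every lesioned library was above every unlesioned one. The log2 fold change of Trem2 was 1.27 (SE 0.38, adjusted p = 0.0502) in the control, just outside the threshold, and 1.16 (SE 0.38, adjusted p = 0.0757) in the mutant, and 1.21 (SE 0.27, adjusted p = 0.00631) averaged over genotypes. With library totals in place of TMM the averaged value of Trem2 was 0.76 and did not pass the test. Tyrobp, on chromosome 7 from 30413760 to 30417585, was at 1408, 1439 and 1271 CPM in the control unlesioned libraries and at 1692, 2117 and 1780 CPM at 4dpl. In the mutant it was at 822, 1189 and 1034 CPM unlesioned and at 1458, 1839 and 1044 CPM at 4dpl. The control groups did not overlap, while mutant 4dpl replicate 3 lay within the mutant unlesioned range. Tyrobp had the smallest averaged difference of the 10 genes, 0.48 (SE 0.20, adjusted p = 0.0729) on the log2 scale, and was not called. With library totals in place of TMM it was at 0.11 in the control and at 0.02 in the mutant.

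Clec7a and Itgax are surface receptors, Clec7a the dectin that binds fungal glucans and Itgax the integrin chain that marks dendritic cells and activated microglia. Clec7a, on chromosome 6 from 129461591 to 129472779, was at 631, 103.9 and 141 CPM in the control unlesioned libraries and at 481, 374.5 and 406 CPM in the control at 4dpl. In the mutant it was at 197, 192 and 169 CPM unlesioned and at 350.5, 421 and 207 CPM at 4dpl. One library, control unlesioned replicate 1, was higher than all lesioned libraries, and the mutant groups were separate by a narrow gap. The log2 fold change of Clec7a was 0.53 (SE 0.51, adjusted p = 0.471) in the control and 0.81 (SE 0.52, adjusted p = 0.268) in the mutant. Without control unlesioned replicate 1 the control value was 1.80 and passed the test. Without control unlesioned replicate 2 it was 0.14 and without replicate 3 it was 0.20, and neither passed. Itgax, on chromosome 7 from 128129547 to 128150657, was at 38.8, 14 and 22.6 CPM in the control unlesioned libraries and at 67.6, 74.6 and 44.2 CPM at 4dpl. In the mutant it was at 20.7, 14.7 and 6.48 CPM unlesioned and at 42.9, 30.1 and 21 CPM at 4dpl. Neither pair of groups overlapped, although the lowest mutant 4dpl library was within 1 CPM of the highest mutant unlesioned one. Itgax had a log2 fold change of 1.31 (SE 0.43, adjusted p = 0.0623) in the control, 1.17 (SE 0.43, adjusted p = 0.0921) in the mutant and 1.24 (SE 0.30, adjusted p = 0.00872) averaged over genotypes.

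Lpl and Ch25h, the enzymes of lipid handling in the set, showed larger differences than the receptors. Lpl encodes lipoprotein lipase, which releases fatty acids from triglycerides, and Ch25h encodes a hydroxylase that turns cholesterol into an oxysterol. Lpl, on chromosome 8 from 68880491 to 68907448, was at 50.9, 41.7 and 167 CPM in the control unlesioned libraries and at 552, 404 and 495 CPM in the control at 4dpl. In the mutant Lpl was at 141, 16.7 and 51.9 CPM unlesioned and at 566, 378.5 and 119.7 CPM at 4dpl. The control groups were well apart, and in the mutant replicate 3 at 4dpl lay below replicate 1 unlesioned. Lpl rose in the control by 2.49 on the log2 scale (SE 0.72, adjusted p = 0.0458), which is 5.6-fold, against 2.34 (SE 0.72, adjusted p = 0.0672) in the mutant. Ch25h, a gene of 1 exon on chromosome 19 from 34473786 to 34475135, was at 14.3, 3.59 and 27.9 CPM in the control unlesioned libraries and at 73.2, 75.1 and 89.1 CPM at 4dpl. In the mutant Ch25h was at 16.3, 3.17 and 6.98 CPM unlesioned and at 64.5, 44.3 and 20.3 CPM at 4dpl. All lesioned libraries were above all unlesioned ones of their genotype, and replicate 2 was lowest in both unlesioned groups. Ch25h rose in the control by 2.37 (SE 0.66, adjusted p = 0.0425) on the log2 scale and was at 2.29 (SE 0.66, adjusted p = 0.0609) in the mutant. Averaged over genotypes Lpl rose by 2.41 (SE 0.51, adjusted p = 0.0052) and Ch25h by 2.33 (SE 0.46, adjusted p = 0.0045).

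Cst7 encodes cystatin F, an inhibitor of lysosomal cathepsins, and Cd9 encodes a tetraspanin of the cell surface that oligodendrocytes also express. Cst7, on chromosome 2 from 150570415 to 150578944, was at 32.3, 40.1 and 47.2 CPM in the control unlesioned libraries and at 110.5, 103.1 and 91.6 CPM in the control at 4dpl. In the mutant Cst7 was at 40.8, 21.1 and 26 CPM unlesioned and at 88.7, 73.7 and 48 CPM at 4dpl. The lesioned libraries were the higher ones throughout, with the narrowest gap in the mutant. Cst7 rose in the control by 1.35 on the log2 scale (SE 0.29, adjusted p = 0.0264), the smallest adjusted p among the members in that comparison. Cd9, on chromosome 6 from 125460266 to 125494791, was at 629, 429 and 599.6 CPM in the control unlesioned libraries and at 1038, 1131 and 1280 CPM at 4dpl. In the mutant Cd9 was at 649, 387 and 442 CPM unlesioned and at 1029, 945 and 704 CPM at 4dpl. Again no unlesioned library reached a lesioned one. Cd9 rose in the control by 1.06 (SE 0.29, adjusted p = 0.0407), and the values in the mutant were 1.26 (SE 0.29, adjusted p = 0.0532) for Cst7 and 0.86 (SE 0.29, adjusted p = 0.0769) for Cd9. Averaged over genotypes, Cst7 rose by 1.31 (SE 0.20, adjusted p = 0.00231) and Cd9 by 0.96 (SE 0.20, adjusted p = 0.00527), while with library totals Cd9 was at 0.55 and did not pass the test. The oligodendrocyte markers moved beside Cd9, with 2 of 7, Mbp and Mobp, called higher at 4dpl in the averaged contrast and none with library totals in place of TMM, and their part in the Cd9 value was not tested.

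Spp1 and Csf1 encode secreted proteins, osteopontin, a ligand of integrins and CD44, and the colony-stimulating factor that keeps microglia and macrophages alive. Spp1, on chromosome 5 from 104435118 to 104441050, was at 2396, 262 and 2325 CPM in the control unlesioned libraries and at 16410, 11410 and 10880 CPM in the control at 4dpl. In the mutant Spp1 was at 587, 93.2 and 493 CPM unlesioned and at 10290, 6151 and 4080 CPM at 4dpl. The groups were far apart in both genotypes, and replicate 2 was the lowest unlesioned library in each. Spp1 had the largest log2 fold change of the members, 2.96 (SE 0.77, adjusted p = 0.0377) in the control, where it rose 7.76-fold, 4.13 (SE 0.81, adjusted p = 0.0522) in the mutant, and 3.54 (SE 0.56, adjusted p = 0.00257) averaged over genotypes. Spp1 made up between 4.5% and 45.4% of the summed CPM of the 10 genes in the unlesioned libraries and between 58.3% and 77.4% at 4dpl. The 10 genes together took between 0.241% and 0.665% of all counts in unlesioned libraries, and between 0.593% and 1.81% at 4dpl. Csf1, on chromosome 3 from 107741048 to 107760469, was at 281, 58.4 and 70.8 CPM in the control unlesioned libraries and at 241, 201 and 211 CPM at 4dpl. In the mutant Csf1 was at 142, 36.6 and 65.1 CPM unlesioned and at 259.9, 205 and 192 CPM at 4dpl. As for Clec7a, control unlesioned replicate 1 exceeded every lesioned control library. Csf1 had a log2 fold change of 0.67 (SE 0.54, adjusted p = 0.377) in the control and of 1.43 (SE 0.54, adjusted p = 0.0981) in the mutant. The control value was 1.78 and passed the test without that library. Without control unlesioned replicate 2 it was 0.32 and without replicate 3 it was 0.37, and neither passed. Averaged over genotypes Csf1 was at 1.05 (SE 0.38, adjusted p = 0.0409), short of the additional threshold on the unadjusted p.

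All 10 genes passed the filter on low counts and had positive log2 fold changes after lesion in both genotypes. A gene was called at a p under 0.01 and a Benjamini-Hochberg adjusted p under 0.05 over the 31109 genes tested. In the control 5 of the 10 were called higher at 4dpl, Lpl, Cst7, Spp1, Cd9 and Ch25h, where 5.12% of all genes tested were. The groups did not overlap for 8 of the 10, against 16.5% of all genes. In the mutant none was called, where 0.0225% of all genes were, 7 in number, while 8 of the 10 were higher at an unadjusted p under 0.05, where 15.9% of all genes were. DESeq2 called 6 of the 10 and 4.28% of all genes, and limma voom 2 of the 10 and 1.24%. The mutant groups did not overlap for 8 of the 10, against 18.8% of all genes. Averaged over genotypes 7 of the 10 were called, all but Tyrobp, Clec7a and Csf1, where 14.2% of all genes were. The median log2 fold change of the members was 1.29 in the control, 1.21 in the mutant and 1.22 averaged, and that of all genes tested was -0.36, -0.18 and -0.28. With library totals alone in place of TMM the averaged medians were 0.82 for the members and -0.69 for all genes. With these totals 5 of the 10 were called, without Trem2 and Cd9, where 2.56% of all genes were. The calls within a genotype rested on single libraries. Without control unlesioned replicate 2 or 3, or without control 4dpl replicate 1 or 2, no member was called in the control, and without replicate 3 at 4dpl 2 were. Without mutant unlesioned replicate 3 there was 1, without mutant 4dpl replicate 2 there were 3, and without control unlesioned replicate 1 there were 6. The share of all genes called moved with them, between 0.003% and 12.2%. In the mutant 8 members were called without mutant unlesioned replicate 1, with 6.36% of all genes, 8 without control unlesioned replicate 1, with 7.72%, and 1 without control unlesioned replicate 2, with 0.069%. The averaged count was between 7 and 9 whichever library was left out, while between 10.2% and 17.7% of all genes were called. The count of 9 came without control unlesioned replicate 1, with 17.7% of all genes.

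**Figure D2:**
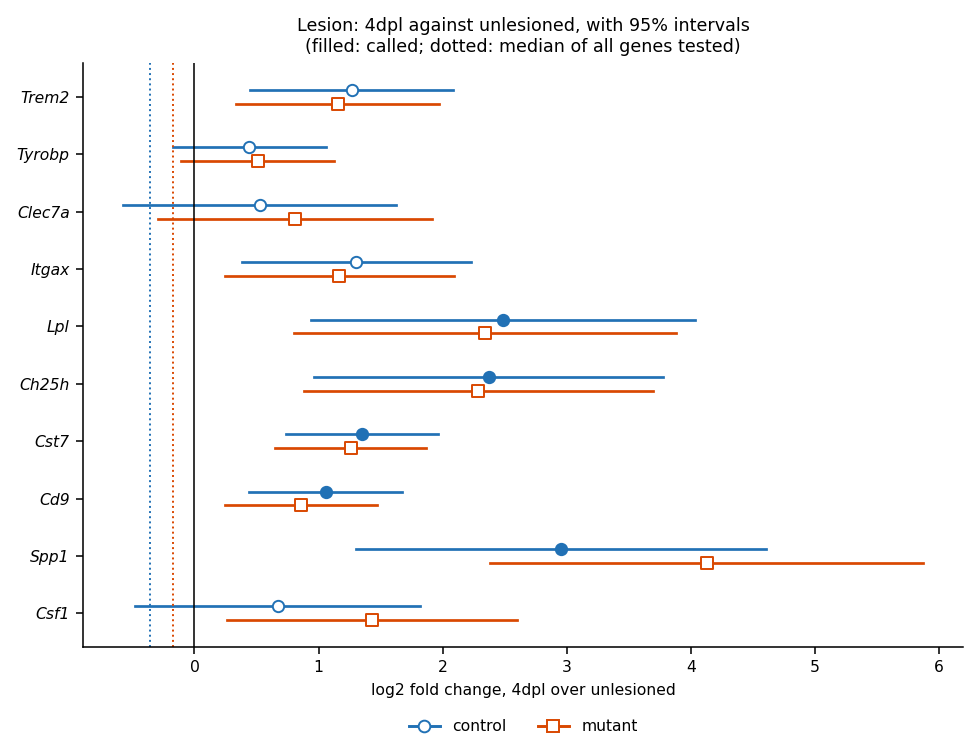
Log2 fold change at 4dpl over unlesioned (horizontal) for each gene (vertical) in the control (circles) and the mutant (squares), with 95% intervals from the edgeR fit; filled markers passed the test and dotted lines are the medians of all genes tested. The points of both genotypes lie to the right of 0 for all 10 genes, and 5 control points and no mutant point are filled.

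The difference between these lesion changes was tested directly as the mutant change minus the control change. No member and 0% of all genes tested were called by edgeR, DESeq2 or limma voom, and no member had an unadjusted p under 0.05. The largest difference was that of Spp1, at 1.17 (95% interval -1.01 to 3.35), which was 0.71 without mutant unlesioned replicate 2 and 1.68 without control unlesioned replicate 2, followed by Csf1 at 0.76 (95% interval -0.86 to 2.38). For the other 8 genes it was between -0.20 and 0.28, with intervals such as -1.26 to 1.03 for Trem2, -2.22 to 1.93 for Lpl and -0.94 to 0.76 for Cst7. These intervals are wide, so the data do not show that the lesion changes were alike. The sign of Clec7a and Csf1 here turned with control unlesioned replicate 1, without which the values were -0.97 and -0.33.

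Between the genotypes the level was lower in the mutant for all 10 genes in unlesioned tissue and for all but Csf1 at 4dpl, where Csf1 turned from 0.01 to -0.03 with RLE size factors, and no single difference passed the test. Without control unlesioned replicate 1 the unlesioned differences of Clec7a and Csf1 were 0.61 and 0.34, and that of Lpl was 0.60 without control unlesioned replicate 3 and 0.17 without mutant unlesioned replicate 2, all above 0. No member was called by edgeR in unlesioned tissue, where 0% of all genes were, nor at 4dpl, where 0% were, and DESeq2 and limma voom called none of the 10 either. In unlesioned tissue the median log2 difference of the members was -0.55, against 0.02 for all genes, and 1 member had an unadjusted p under 0.05, where 5.22% of all genes did. The median was -1.01 without mutant unlesioned replicate 1 and -0.85 without control unlesioned replicate 2, against 0.03 and -0.04 for all genes. In these fits 5 and 4 members had an unadjusted p under 0.05, and the share of all genes that did was not determined. The homeostatic microglia genes lay the other way, with 12 of 12 above 0 and a median of 0.43 in the mutant over the control, and 8 of the 13 myeloid genes were below 0 with a median of -0.15. The 1 member was Spp1, at -2.09 (95% interval -3.69 to -0.49, adjusted p = 0.787), although its groups overlapped. Tyrobp was the 1 member whose unlesioned groups did not overlap, against 6.28% of all genes that were lower in the mutant in this way, with a log2 difference of -0.44 (95% interval -1.05 to 0.18). At 4dpl the members' median was -0.49, against 0.05 for all genes, and it was -0.28 without mutant 4dpl replicate 3 and -0.71 without mutant 4dpl replicate 1. The groups did not overlap for 5 of the 10, Itgax, Ch25h, Cst7, Cd9 and Spp1, all lower in the mutant, against 5.44% of all genes. Mutant 4dpl replicate 3 was the lowest library of its group for all 10 genes and had the highest summed oligodendrocyte markers, and their part in these values was not tested. Itgax was at -0.99 (95% interval -1.90 to -0.07, adjusted p = 0.661), Spp1 at -0.92 (95% interval -2.46 to 0.63), Ch25h at -0.88 (95% interval -2.23 to 0.47), Cst7 at -0.54 (95% interval -1.14 to 0.07) and Cd9 at -0.37 (95% interval -0.98 to 0.25). Without mutant 4dpl replicate 3 they were -0.77 for Itgax, -0.65 for Spp1, -0.54 for Ch25h, -0.33 for Cst7 and -0.22 for Cd9. Of the other lists, 12 of the 13 myeloid genes were below 0 in the mutant at 4dpl (median -0.31). Of the 30 other DAM genes 25 were below 0 (median -0.43). Among those 30, 14 did not overlap and were lower, and 2 did not overlap and were higher. Of the 12 homeostatic microglia genes 7 were below 0 (median -0.05). All 6 neutrophil markers (median 0.82) and all 7 oligodendrocyte markers (median 0.67) were above 0. Relative to the myeloid genes of the same library, the groups did not overlap for 2 members, Trem2 at -0.24 and Ch25h at -0.74 on the log2 scale. Neither passed a test (exact permutation test, p = 0.1, adjusted p = 0.364 for each). The share of all genes not overlapping in this way was not determined, so whether 2 of 10 is unusual is not known. Trem2 itself was at -0.53 (95% interval -1.34 to 0.28) and Csf1 at 0.01 (95% interval -1.13 to 1.15). A sample with fewer cells of a type and one with less RNA per cell cannot be told apart in these libraries, here and for every other value.

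**Figure D3:**
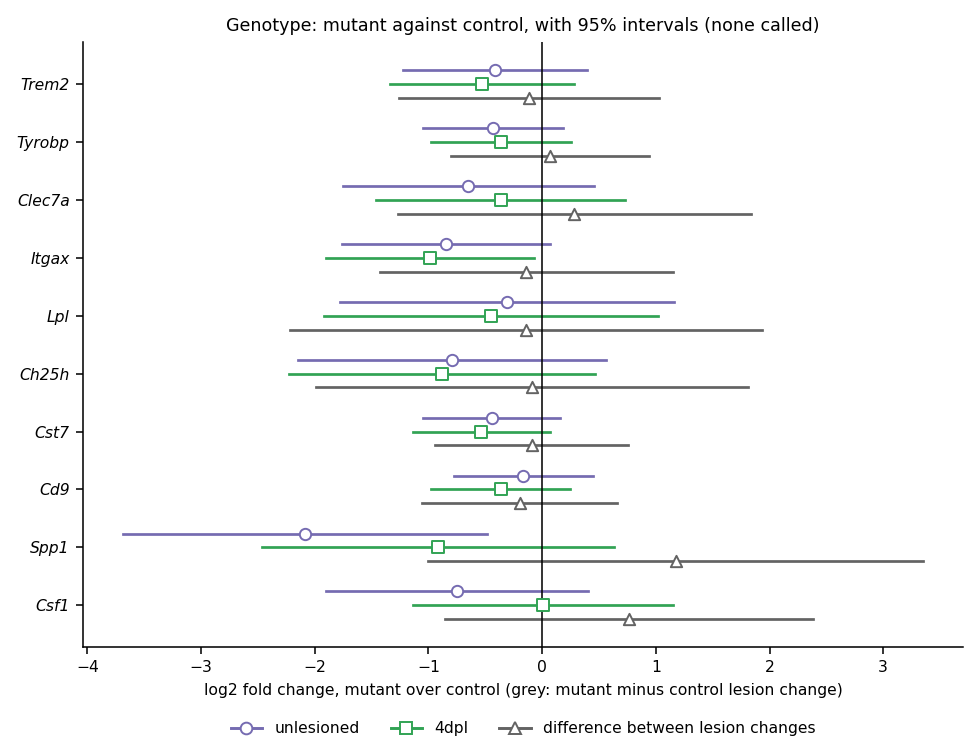
Log2 difference of mutant over control (horizontal) for each gene (vertical) in unlesioned tissue (circles) and at 4dpl (squares), and the mutant minus the control lesion change (triangles), with 95% intervals from the edgeR fit. No marker is filled because none passed the test, and the circles all lie left of 0, from -2.09 for Spp1 to -0.17 for Cd9.

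Levels can be set side by side between genes only per length, here as CPM per kilobase of exon. In the control unlesioned libraries Tyrobp was highest at 2058 ± 134 (SD, n = 3), above Spp1 at 1008 ± 735 (SD, n = 3), and those groups of values did not overlap. From Spp1 downward each gene overlapped the next in order, through Cd9, Clec7a, Trem2, Cst7, Csf1, Ch25h and Lpl to Itgax, the lowest at 5.23 ± 2.62 (SD, n = 3). In the control at 4dpl Spp1 was first at 7826 ± 1850 (SD, n = 3), above Tyrobp at 2793 ± 337 (SD, n = 3) and Cd9 at 562 ± 59.9 (SD, n = 3), with no overlap between these 3. Clec7a at 159 ± 20.7, Trem2 at 146.5 ± 32 and Cst7 at 103.2 ± 9.63 (SD, n = 3 each) overlapped from one to the next. Ch25h at 58.6 ± 6.42 (SD, n = 3) lay above Lpl at 46.2 ± 7.11 and Csf1 at 41.2 ± 3.92 (SD, n = 3 each), which overlapped, and Itgax was again lowest at 12.9 ± 3.31 (SD, n = 3). In the mutant at 4dpl Spp1 at 4152 ± 1920 and Tyrobp at 2169 ± 597 (SD, n = 3 each) overlapped. The first place thus passed from Tyrobp to Spp1 with lesion in the control.

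Other myeloid genes also rose after lesion, so each member was set against them within its library. Of the 13 myeloid genes, such as Aif1, Itgam and the C1q chains, 10 were called higher at 4dpl in the averaged contrast and none lower, with a median log2 fold change of 0.93. With library totals in place of TMM the median was 0.54 and none was called. Those with the smallest p were C1qb, C1qc, Fcgr3 and C1qa, between 0.76 and 1.24. They summed to between 8169 and 13070 CPM in the control unlesioned libraries and to between 19860 and 29490 CPM in the control at 4dpl. In the mutant they summed to between 7536 and 15040 CPM unlesioned and between 18240 and 23360 CPM at 4dpl. Several of these genes, such as Ptprc, Itgam and Fcer1g, are also expressed by neutrophils.

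The log2 CPM of a member minus the mean log2 CPM of the 13 genes was compared between lesioned and unlesioned libraries, with lesion labels permuted within each genotype, a choice made after the values were seen. Spp1 relative to myeloid genes was higher at 4dpl by 3.06 on the log2 scale (exact permutation test, two-sided, p = 0.005), and Ch25h by 1.73 (exact permutation test, two-sided, p = 0.005), the smallest p that the 12 libraries allow here. Lpl was higher by 1.78 (exact permutation test, two-sided, p = 0.015) and Cst7 by 0.43 (exact permutation test, two-sided, p = 0.045). These p-values are not adjusted, and 10 such tests were run. After adjustment p was 0.025 for Spp1 and for Ch25h, 0.05 for Lpl and 0.112 for Cst7, so Cst7 did not stay under 0.05. Against 12 homeostatic microglia genes instead, Spp1 was higher by 2.80, Lpl by 1.52 and Ch25h by 1.47, and Cst7 only by 0.17 (exact permutation test, two-sided, p = 0.505). Trem2 was at 0.41 relative to the myeloid genes (exact permutation test, two-sided, p = 0.115), Cd9 at 0.09 and Clec7a at -0.01. Tyrobp was at -0.42 (exact permutation test, two-sided, p = 0.07), so the adaptor moved less than the myeloid genes around it without passing a threshold. Within the control alone the groups of 3 did not overlap, higher at 4dpl, for 3 of the 10, Lpl, Spp1 and Ch25h, against 0.884% of all genes treated in the same way, and within the mutant for 5, Trem2, Cst7, Spp1, Csf1 and Ch25h, against 0.771%. With 3 libraries against 3 the smallest p is 0.1, so none of these can pass a threshold of 0.05 on its own. Without control unlesioned replicate 1 the control count was 5. The share of all genes with that library left out was not determined, so the rise cannot be set against it.

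**Figure D4:**
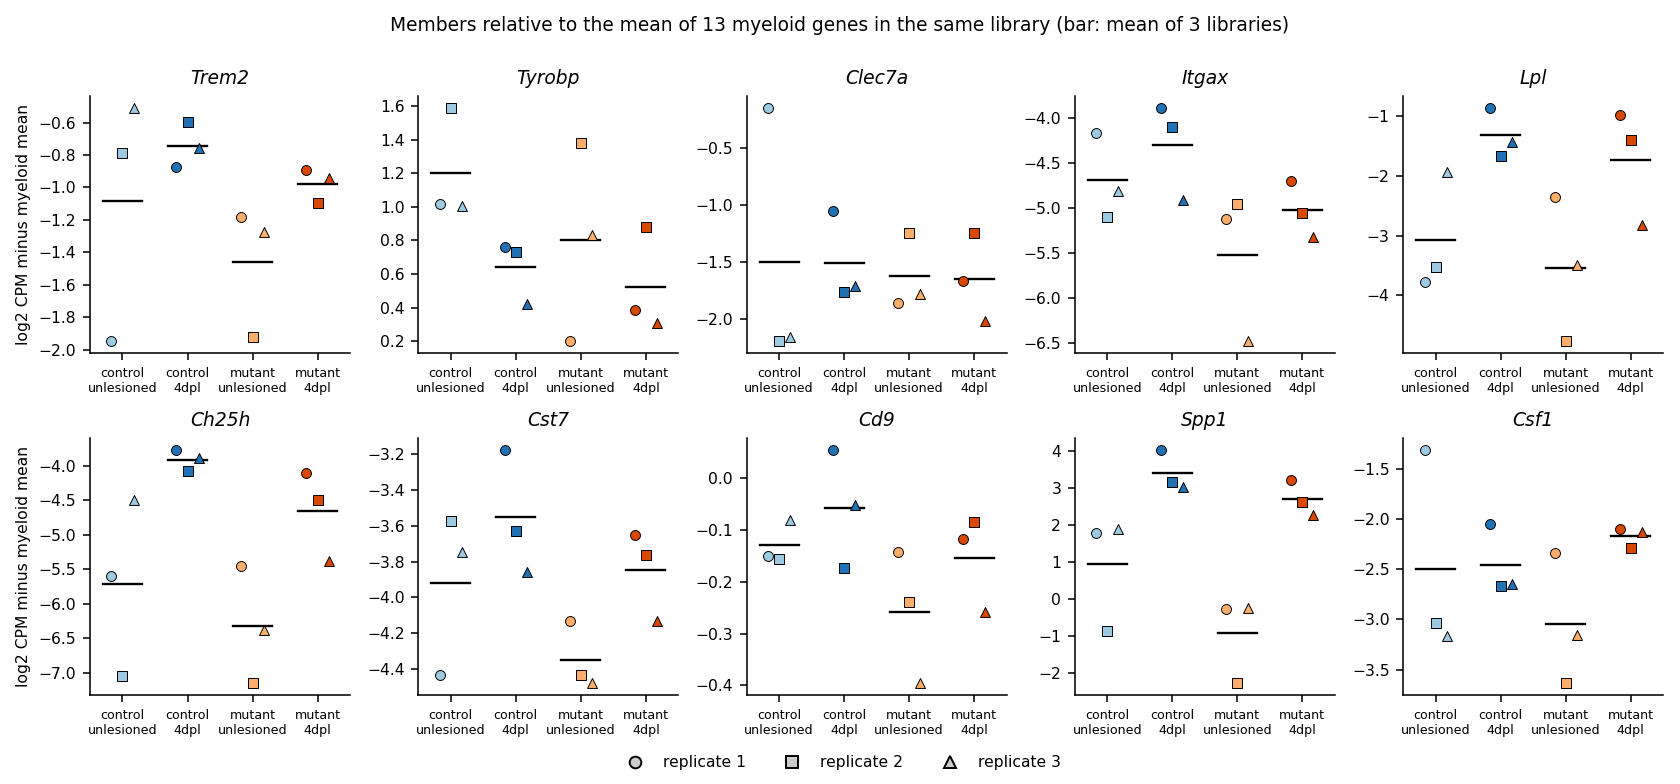
Log2 CPM of each gene minus the mean log2 CPM of 13 myeloid genes in the same library (vertical) in the 4 groups (horizontal); each point is 1 library, its shape the replicate number, and the bar is the mean of 3 libraries. The lesioned libraries of Spp1 lie between 2.28 and 4.04, above all unlesioned ones, while those of Clec7a lie within the range of the unlesioned ones.

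Other genes of the DAM state, chosen as a list without the 10 members, moved with them. Of the 30, 20 were called higher at 4dpl in the averaged contrast and none lower, with a median log2 fold change of 1.33 against -0.28 for all genes. With library totals in place of TMM 17 were called higher and none lower, with a median of 0.91. The 4 with the smallest p were the scavenger receptor Colec12 at 2.51 (SE 0.29, adjusted p = 0.0019), the fatty acid carrier Fabp5 at 1.93 (SE 0.24, adjusted p = 0.0019), and the lysosomal membrane proteins Cd63 at 1.34 (SE 0.18, adjusted p = 0.00204) and Cd68 at 1.97 (SE 0.27, adjusted p = 0.0021). Apoe, the main apolipoprotein of the brain, named here after its value was seen, was at 2.30 (SE 0.39, adjusted p = 0.00285). Cd52 was the 1 gene of the list below 0, at -0.25 (SE 0.27, adjusted p = 0.459). In the control alone 16 of the 30 were called higher. In the mutant 1 was, Fabp5 at 1.93 (SE 0.34, adjusted p = 0.0456), against 1.94 (SE 0.34, adjusted p = 0.0244) in the control. The list summed to between 103900 and 109100 CPM in the control at 4dpl, above the 59900 to 84670 CPM of the mutant at 4dpl, and unlesioned libraries were between 31460 and 45740 CPM. A few genes make up most of this sum. In control 4dpl replicate 1 Lyz2 was at 22840, Apoe at 17450, Fth1 at 15870, Ctsd at 14950 and Ctsb at 12790 CPM. None of the 30 was called between genotypes at 4dpl.

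Genes that act with TREM2 and with the receptor for CSF1 were less uniform. Of the 19, 9 were called higher in the averaged contrast and none lower, with a median of 0.59, while with library totals 6 were called higher and 3 lower. The smallest p-values belonged to the adaptor Lat2 at 1.28 (SE 0.21, adjusted p = 0.00265), Ms4a6d at 1.79 (SE 0.34, adjusted p = 0.00376), and the proteases that shed TREM2 from the surface, Adam10 at 1.21 (SE 0.26, adjusted p = 0.00557) and Adam17 at 1.32 (SE 0.29, adjusted p = 0.00582). The kinase Syk, named after its value was seen, was at 0.32 (SE 0.25, adjusted p = 0.303). Within the control 6 of the 19 were called and within the mutant none, where 6 had an unadjusted p under 0.05. Partners and targets of the members' products made a further list of 15 genes, of which 14 passed the filter and 7 were called higher, or 3 with library totals. Those with the smallest p were Angptl4, an inhibitor of lipoprotein lipase, at 2.57 (SE 0.33, adjusted p = 0.0019), Lgmn, a lysosomal protease that is inhibited by cystatin family members, at 1.41 (SE 0.29, adjusted p = 0.00472), Gpr183, the receptor for oxysterols made from the Ch25h product, at 1.06 (SE 0.23, adjusted p = 0.00543), and Ctsc, a cathepsin that cystatin F inhibits, at 1.195 (SE 0.31, adjusted p = 0.0105). Angptl4 was the 1 gene of this list called in the mutant, at 2.998 (SE 0.48, adjusted p = 0.0445). Cyp7b1, the enzyme that converts the Ch25h product further, named after its value was seen, was at -0.82 (SE 0.45, adjusted p = 0.144).

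Homeostatic microglia genes are known to be lost from microglia that take on the DAM state, and none was called lower here. Of the 12, 9 were called higher at 4dpl in the averaged contrast and none lower, with a median of 1.08, and among those with the smallest p were Fcrls at 1.79, Cx3cr1 at 1.08 and Gpr34 at 1.22. With library totals in place of TMM the median was 0.68, 11 of the 12 were above 0 and none was called. Their summed level was between 2797 and 5332 CPM in the control unlesioned libraries and between 7790 and 13450 CPM at 4dpl, and in the mutant between 2835 and 8349 CPM unlesioned and between 7788 and 11910 CPM at 4dpl. Of the 10 markers of monocytes and macrophages from blood or borders, Ms4a7 at 3.12, Mrc1 at 1.48 and Arg1 at 2.94 were called higher and Plac8 at -0.93 lower. The median of these 10 was 0.053, while with library totals it was -0.335, and 2 were called higher and 2 lower. All 6 neutrophil markers were below 0 and none was called by edgeR, with 2 at an unadjusted p under 0.05, while with library totals 5 were called lower. They summed to between 41900 and 90790 CPM in the control unlesioned libraries and between 25460 and 30860 CPM in the control at 4dpl. In the mutant the sum was between 25990 and 105100 CPM unlesioned and between 18760 and 95120 CPM at 4dpl. These lists moved beside the members, and beyond the values relative to myeloid and homeostatic genes their part in the members' changes was not tested.

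**Figure D5:**
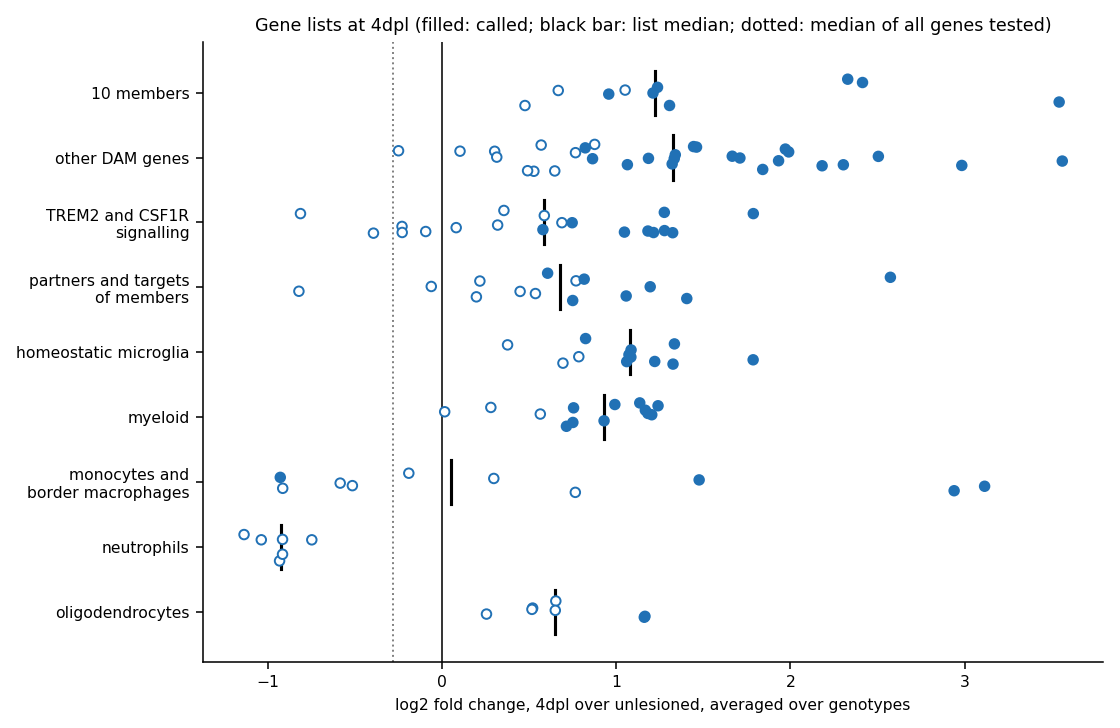
Log2 fold change at 4dpl over unlesioned averaged over genotypes (horizontal) of the genes of 9 lists (vertical); each point is 1 gene, filled where it passed the test, the black bar is the list's median and the dotted line the median of all genes tested, -0.28. The medians are 1.22 for the 10 members and 1.33 for the other DAM genes, and all 6 neutrophil points lie below 0.

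Over the 12 libraries the members did not all vary together. After the mean of each group was subtracted, Lpl and Cst7 had a Pearson r of 0.91, Cd9 and Ch25h of 0.91, and Spp1 and Ch25h of 0.90, as a description over 12 libraries that share their scaling. Tyrobp had r between -0.28 and 0.26 with the other 9, and Trem2 had -0.44 with Clec7a and 0.78 with Lpl. Clec7a had its highest r with Csf1, at 0.76. Mutant unlesioned replicate 2 was the lowest of its group for 7 of the 10, all but Tyrobp, Itgax and Clec7a, and mutant 4dpl replicate 3 was the lowest of its group for all 10. The summed oligodendrocyte markers of that last library were at 68390 CPM.

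The genes whose log2 CPM over the 12 libraries was most like that of each member, among 13616 genes with a mean log2 CPM of at least 1, were found by Pearson's r without removing the groups. For Trem2 they were Syngr1 (r = 0.988), the complement chain C1qa (r = 0.987) and Tmem37 (r = 0.984). Spp1 was closest to the secretory kinase Fam20c (r = 0.991), Rab7b (r = 0.989) and Tmem126a (r = 0.988), and Lpl to the fatty acid carrier Fabp3 (r = 0.981), Stab1 (r = 0.979) and the cathepsin Ctsd (r = 0.979). Ch25h was closest to Tbxas1 (r = 0.987), Rgs1 (r = 0.985) and the lysosomal enzyme Gusb (r = 0.982), and Cd9 to Slc16a13 (r = 0.988) and the lysosomal enzymes Ctsh (r = 0.987) and Hexa (r = 0.987). Clec7a was closest to Cflar (r = 0.974), Ptgs2 (r = 0.968) and Nup107 (r = 0.968), and Cst7 to Synj2bp (r = 0.988). The remaining members had lower values, at most 0.969 with Ndufa1 for Tyrobp, 0.971 with Hnrnpa3 for Itgax and 0.971 with Prr14l for Csf1. Such r values rest in part on the shared shift between lesioned and unlesioned libraries.

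Some members share exon sequence with another annotated gene, and the strand setting of the counting is not given in the sources used here. Spp1 shares 309 of its 1648 exon bases with Gm42793 on the same strand, whose count was at most 2.07% of that of Spp1. Ch25h shares 159 of 1350 bases with Gm26902 on the opposite strand, whose count reached 7.14% of that of Ch25h in 1 library. Cd9 shares 218 of 2044 bases with Gm26728, also opposite, at no more than 0.485% of its count. Reads in shared stretches could have been left uncounted, so the levels of Spp1, Ch25h and Cd9 are uncertain by an amount that the counts alone do not give.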

How the data were processed

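RNA from 12 libraries of spinal cord cells was sequenced from total RNA. The authors made whole-number read counts per Ensembl gene and deposited 1 count table per library, with no normalization. The study's methods name BWA and featureCounts on GRCm38, while the submitters' processing notes list STAR, mm10 and DESeq2 1.2.5, and the strand setting is not given in the sources used here. All 37 mitochondrial genes were at 0 in every library.

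Groups came from the sample labels. Genes passing edgeR's filterByExpr, 31109 of 54838, were fitted in R 4.3.3 with edgeR 4.0.16 (TMM, quasi-likelihood test) as 4 group means over 12 libraries, without a replicate block. Log2 CPM used a prior count of 2. A gene was called at p under 0.01 and Benjamini-Hochberg adjusted p under 0.05, and intervals are 95%. Members were compared with the mean log2 CPM of 13 myeloid genes by exact permutation tests. The fits were tested on simulated data.

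The members, lists and tests were chosen with earlier results of these data known. All 10 members are named, and of each other list the 4 genes with the smallest p in the averaged lesion contrast, with other names marked as chosen after their values were seen. One gene that this rule would name is not reported here. Markers of monocytes, neutrophils and oligodendrocytes were treated as lists of other cells. The 3 genes nearest to each member by Pearson's r were taken from genes with a mean log2 CPM of at least 1. Alternatives were DESeq2 1.42.0, limma 3.58.1 (voom), the newer edgeR setting (legacy set to false), RLE size factors, library totals, no filter or at least 10 counts in every library, an adjusted p under 0.1, fits of the compared groups only, replicate blocks and leaving out each library.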

Additional observations from a re-analysis of the deposited data

How the results depend on the processing

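The direction of the lesion change of all 10 genes held under every alternative, but the calls did not. In the control, 5 members and 1592 genes were called higher at 4dpl with edgeR. The count was 7 members with DESeq2, limma voom, edgeR with legacy set to false, no filter on low counts and an adjusted p under 0.1. Of all genes 2117 (6.81%) were called with limma voom, 2229 (7.17%) with edgeR with legacy set to false and 1989 (3.9%) with no filter. There were 2620 genes with DESeq2, 1 member and 473 genes with library totals, 1 member and 679 genes with at least 10 counts in every library, and 2 members and 613 genes with only the groups compared. An adjusted p under 0.1 gave 3292 genes. In the mutant, 0 members and 7 genes were called, against 6 members and 1333 genes with DESeq2, 2 and 386 with limma voom, 5 and 1374 with edgeR with legacy set to false, 1 and 15 with library totals, 4 and 317 with no filter on low counts, 1 and 40 with only the groups compared, and 8 and 2971 with an adjusted p under 0.1. At least 10 counts in every library gave 4 genes. Averaged over genotypes, 4423 genes became 797 with library totals, 1848 with at least 10 counts in every library and 6699 with an adjusted p under 0.1. Between genotypes edgeR called 0 genes. Unlesioned, DESeq2 called 44, edgeR with legacy set to false 1 and no filter 9, and at 4dpl DESeq2 called 229 and no filter 4. The causes were not tested.

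Same-numbered lesioned and unlesioned libraries did not deviate together. The correlation of their deviations was between 0.05 and 0.19 in the control and between -0.07 and 0.07 in the mutant by label number, and between -0.09 and -0.02 by the numbers in the file names, so the numbers were not taken to pair the samples. With the replicate block by label number 7 members and 7.51% of all genes were called in the control, 0 members and 4 genes in the mutant, and 9 members and 15.6% of all genes averaged. With the replicate block by file number 6, 0 and 9 members and 761, 0 and 2818 genes were called.

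Small values changed sign. Csf1 between genotypes at 4dpl, 0.01 on the log2 scale, was -0.032 with DESeq2 and with RLE size factors, -0.066 with no filter, and between -0.13 and 0.093 without single libraries. For the mutant minus control lesion change, Tyrobp was -0.012 with DESeq2 and with RLE size factors, -0.083 with library totals and -0.165 with the file number block. Clec7a was -0.24 with limma voom, -0.036 with library totals, -0.27 with the label number block and -1.34 with the file number block, which gave 0.45 for Trem2 and -0.14 for Csf1.

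Leaving out each library in turn gave 0 to 6 members and 1 to 4124 genes in the control, 0 to 8 members and 0 to 2615 genes in the mutant, 0 to 1 genes between genotypes unlesioned and 0 to 48 at 4dpl, and 3 to 5 members not overlapping relative to myeloid genes in the control. For this last count the share of all genes was not determined with a library left out. The difference of lesion changes then ranged from -0.51 to 0.22 for Trem2, from -0.13 to 0.26 for Tyrobp, from -0.97 to 0.69 for Clec7a, from -0.33 to 1.45 for Csf1, from 0.71 to 1.68 for Spp1, from -1.05 to 0.89 for Lpl, from -0.30 to 0.23 for Cst7, from -0.60 to 0.27 for Itgax, from -0.35 to 0.061 for Cd9 and from -0.86 to 0.72 for Ch25h. The unlesioned genotype difference ranged from -1.34 to 0.60 for Lpl, from -1.06 to 0.61 for Clec7a and from -1.44 to 0.34 for Csf1.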
